A study of Mus musculus with 472 samples.

Results

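The genes described here encode the machinery that loads, docks and fuses synaptic vesicles: the SNARE proteins and their regulators, the vesicle membrane proteins and the scaffolds of the release site. They were listed by symbol, with earlier results of these data known. Of 45 listed genes in 13 families, 44 had a column among the 55450 genes of the table, and Vamp7 was not analysed here. The cells were single retinal ganglion cells, the neurons that carry the output of the retina to the brain, from C57BL/6J mice aged 7 to 9 weeks, and all belong to 1 untreated group with no genotype beyond the strain given. A pipette was sealed onto 1 cell at a time in the isolated retina, light responses were taken, and the content was then drawn up and its RNA amplified by Smart-seq2, a full-length method without molecular identifiers. Each library held 1 cell and the labels name no animals, so the group counts as 1 sample, there are no replicates and no p-value is given.

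Vesicle fusion is driven by SNARE proteins, in which a vesicle protein (a VAMP) zips together with syntaxin and SNAP-25 on the plasma membrane. Synaptotagmins sense calcium, complexins hold and then help the assembled SNAREs, Munc13 and RIM proteins prime vesicles at the active zone, and NSF with its SNAP adaptors takes spent complexes apart. Many of these proteins come as paralogs, and the retina is known for using different paralogs at the ribbon synapses of photoreceptors and bipolar cells and at the conventional synapses of amacrine and ganglion cells.

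Levels are CPM, the count of a gene scaled to 1000000 gene counts of its cell, and a level of at least 10 CPM is called positive. Levels of different genes were compared only per kilobase of exon (CPM per kb). The median cell had 5184792.5 gene counts (58907 to 13004880) and 5554.5 positive genes (quartiles 4071.5 and 6571.75). Library names fall into 5 runs, called A to E, of which A holds 49.6% of the cells and B to E hold 98, 62, 59 and 19 cells. Run D stood apart with a median of 3024 positive genes, and 11 of the 12 cells with under 1000 positive genes belonged to it. The label was borne out by ganglion cell markers, since 98.7% of cells had 3 or more of 12 pan-ganglion-cell genes positive. Markers of other retinal cells were also present. Of all cells, 67.4% had 3 or more rod markers of 8, 34.96% had 3 or more bipolar markers of 9 and 42.4% had 3 or more amacrine markers of 8. The largest share was that of Müller glia, with 79.4% of cells at 3 or more markers of 8. A set of 26.1% of the cells had under 3 positive markers each of rods, cones, bipolar and amacrine cells. These are called few-marker cells below. Müller glia markers did not enter this rule.

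Most of the release machinery was carried by most ganglion cells. The 44 genes comprised 11 that at least 90% of cells carried, 23 found in 50% to 90% and 10 in 10% to 50%, and no gene lay under 10%. The 34 genes at or above 50% compare with 19.2% of the 22436 genes positive in any cell. The count was 34 without run D and 29 in the few-marker cells. The median cell had 31 of the 44 genes positive, with quartiles of 27 and 34 and a range of 2 to 43. The median was 21 in run D and between 31 and 34 in each of the other runs. At least 1 member of all 13 families was positive in 53.8% of cells (exact 95% interval 49.2% to 58.4%), and a further 26.1% lacked a single family. All intervals cover counting error over cells only.

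**Figure D1:**
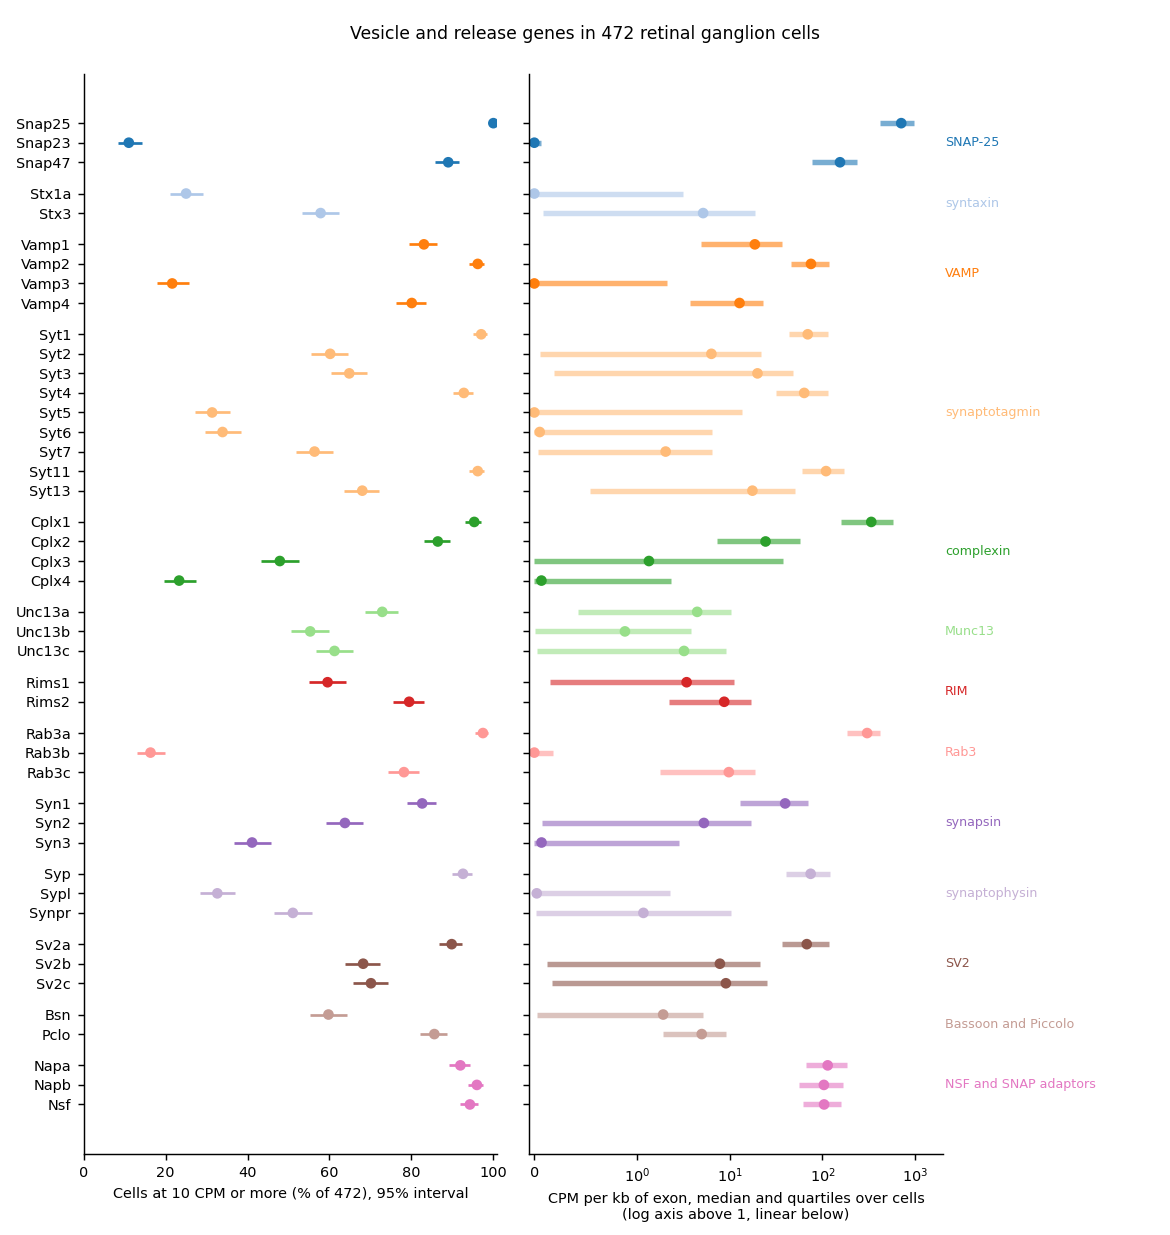
Share of all cells at 10 CPM or more with its exact 95% interval (left) and the median CPM per kb with quartiles over cells (right, log axis above 1), for the 44 genes grouped by family. In most families 1 paralog stands to the right of the others, as Snap25 at 100% of cells, while Snap23, Rab3b and Vamp3 lie at medians of 0.

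Among the plasma membrane SNAREs, Snap25 had the highest level of the 44 genes. Snap25 (chromosome 2, 136713453 to 136782428, mm10), the neuronal plasma membrane SNARE, ranged from 17.9 CPM through a median of 4809.5 to 14015 CPM and was positive in every cell. Its mean level of 728.7 CPM per kb made up 80.9% of the summed level of its family. Snap47, a relative on internal membranes, followed at 170.2 CPM per kb and 88.98% of cells. Snap23, the relative that serves many non-neuronal cells, was positive in 11.02%. Within single cells Snap25 was above Snap47 in 97.7% of cells and above Snap23 in all of them. In the few-marker cells Snap25 was positive in 100% and Snap23 in 4.07%.

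The 2 syntaxins among the 44 genes had the lowest levels of the SNARE families. Stx3 (chromosome 19, 11775118 to 11819403), the syntaxin known from ribbon synapses, was positive in 57.8% of cells (53.2% to 62.3%), with a median of 29.4 CPM and a highest value of 1200.2 CPM. Stx1a (chromosome 5, 135023482 to 135051100), a syntaxin of conventional synapses, was positive in 25% (21.2% to 29.2%), with a median of 0 and a highest value of 349.03 CPM. In the cells positive for either, Stx1a was above Stx3 in 29.7%, and neither was positive in 33.1% of all cells. Their mean levels were 15.4 CPM per kb for Stx3 and 8.11 CPM per kb for Stx1a. In the few-marker cells Stx3 was positive in 42.3% and Stx1a in 17.9%, and their shares of the summed Stx1a and Stx3 level were then near equal, with 50.1% for Stx3.

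The vesicle SNAREs were led by Vamp2, with Vamp1 present beside it in most cells. Vamp2, the main synaptobrevin of the forebrain, was positive in 96.2% of cells at a mean of 85.8 CPM per kb, and Vamp1 (chromosome 6, 125215551 to 125245964), the synaptobrevin of many caudal and motor synapses, in 83.1% at 25.02 CPM per kb. Vamp4, which works in recycling through the Golgi and endosomes, was positive in 80.1%, and Vamp3, the cellubrevin of most cell types, in 21.6%. Vamp1 and Vamp2 were both positive in 81.99% of cells, but Vamp1 was above Vamp2 in 10.9% (8.19% to 14.1%) of the cells positive for either. Without division by length that share was 37.9%. Vamp1 varied widely, from 0 through a median of 189.3 CPM to 1486 CPM. Its spread over cells, less the median spread of genes of like level, was at percentile 98.95. That percentile is over the 11149 genes positive in 10% of cells or more.

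Of the 9 synaptotagmins, 3 were positive in over 90% of cells. Syt11 and Syt4, which do not sense calcium in the usual way, had means of 123.03 and 84.96 CPM per kb and were positive in 96.2% and 92.8%. Syt1, the fast calcium sensor of forebrain synapses, had a mean of 80.6 CPM per kb and was positive in 97.03%. Syt13, another member that does not bind calcium, was positive in 68.01%, Syt3 in 64.8% and Syt2 in 60.2%. Syt7, a slow high-affinity calcium sensor, was positive in 56.4%, Syt6 in 33.9% and Syt5 in 31.4%. Most cells carried many synaptotagmins together: 7 were positive in 28.2% of cells, 6 in 20.6% and all 9 in 3.39%, while 5 cells had none. Syt11 led the family per kb of exon, but per kb of the longest transcript Syt1 led with 29.2% of the summed level. Syt1 was above its close paralog Syt2 (chromosome 1, 134646677 to 134762593), the fast sensor of many brainstem and spinal synapses, in 92.6% of cells positive for either.

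The complexins were led by Cplx1, and Cplx3 and Cplx4 were the most variable of them for their level. Cplx1, the complexin of conventional synapses, was positive in 95.3% of cells with a median of 736 CPM and a highest value of 3839 CPM, and it made up 81.4% of the summed level of its family at 404.3 CPM per kb. Cplx2, its close paralog, was positive in 86.4% at 38.1 CPM per kb. Cplx3 and Cplx4 carry a lipid anchor and are known from the ribbon synapses of bipolar cells and photoreceptors. Cplx3 (chromosome 9, 57599992 to 57606281) was positive in 47.9% of cells, with a median of 3.95 CPM and a highest value of 1529 CPM, and Cplx4 in 23.3%, with a highest value of 1014 CPM. Cplx1 was above Cplx2 in 95.4% of cells positive for either. Cplx3 and Cplx4 were among the 4 genes of widest spread over cells for their level, with Vamp1 and Sv2c.

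Priming and active zone genes lay at low levels per kb in many cells. Their exon lengths ran from 7.36 kb for Rims1 to 22.7 kb for Unc13b, and Pclo had a median of 111.6 CPM before division by length. Unc13a, the main Munc13 of excitatory brain synapses, was positive in 72.9% of cells, Unc13c in 61.2% and Unc13b in 55.3%. By mean level Unc13c led with 8.89 CPM per kb against 7.38 for Unc13a, but by median Unc13a led with 4.44 against 3.20, and Unc13a was the higher of both in 56.1% of cells. Unc13c reached 4314 CPM in 1 cell. In the few-marker cells Unc13a led by the mean too, with 44.4% of the summed level against 44.02%. Rims2 and Rims1, scaffolds that tie vesicles to calcium channels, were positive in 79.4% and 59.5%, and Rims1 was above Rims2 in 33.3% of cells. Pclo and Bsn, which encode the giant scaffolds Piccolo and Bassoon, were positive in 85.6% and 59.7%, with Bsn above Pclo in 28.3%.

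On the vesicle side a single paralog led each family. Rab3a, the small GTPase of synaptic vesicles, was positive in 97.5% of cells at a mean of 317.9 CPM per kb, which was 95.2% of its family, and it was above Rab3c in 99.8% of cells. Rab3c was positive in 78.2% and Rab3b in 16.3%. Syn1, which ties vesicles into the reserve pool, was positive in 82.6%, Syn2 in 63.8% and Syn3 in 41.1%, and Syn1 was above Syn2 in 87.8% of cells positive for either. Syp, which encodes the vesicle membrane protein synaptophysin, made up 88.3% of its family and was positive in 92.6%, against 51.1% for Synpr (synaptoporin) and 32.6% for Sypl. Sv2a, a vesicle glycoprotein and the target of levetiracetam, was positive in 89.8%, Sv2c in 70.1% and Sv2b in 68.2%. Annotated exons of genes on the opposite strand cover 16.8% of the exon bases of Syp, 14.5% of Syt4, 14.1% of Syn3 and 11.6% of Snap47, and whether the counting used strand is not given, so reads of those stretches cannot be told apart.

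The recycling genes were the most even family per kb of exon. Napa and Napb, the adaptors alpha-SNAP and beta-SNAP, and Nsf, the ATPase they recruit, were positive in 91.9%, 95.97% and 94.3% of cells, and all 3 were positive in 88.3%. Their means of 128.1, 116.6 and 114.9 CPM per kb lay close together, and within cells Napa was above Napb in 53.4% and above Nsf in 51.97%, and Napb was above Nsf in 49.02%. Per kb of the longest transcript Nsf led with 40.2% of the summed level. By that length Napa was above Napb in 50.98% and above Nsf in 31.8%, and Napb was above Nsf in 32.8%. With no length these shares were 27.8%, 18.4% and 39.3%.

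**Figure D2:**
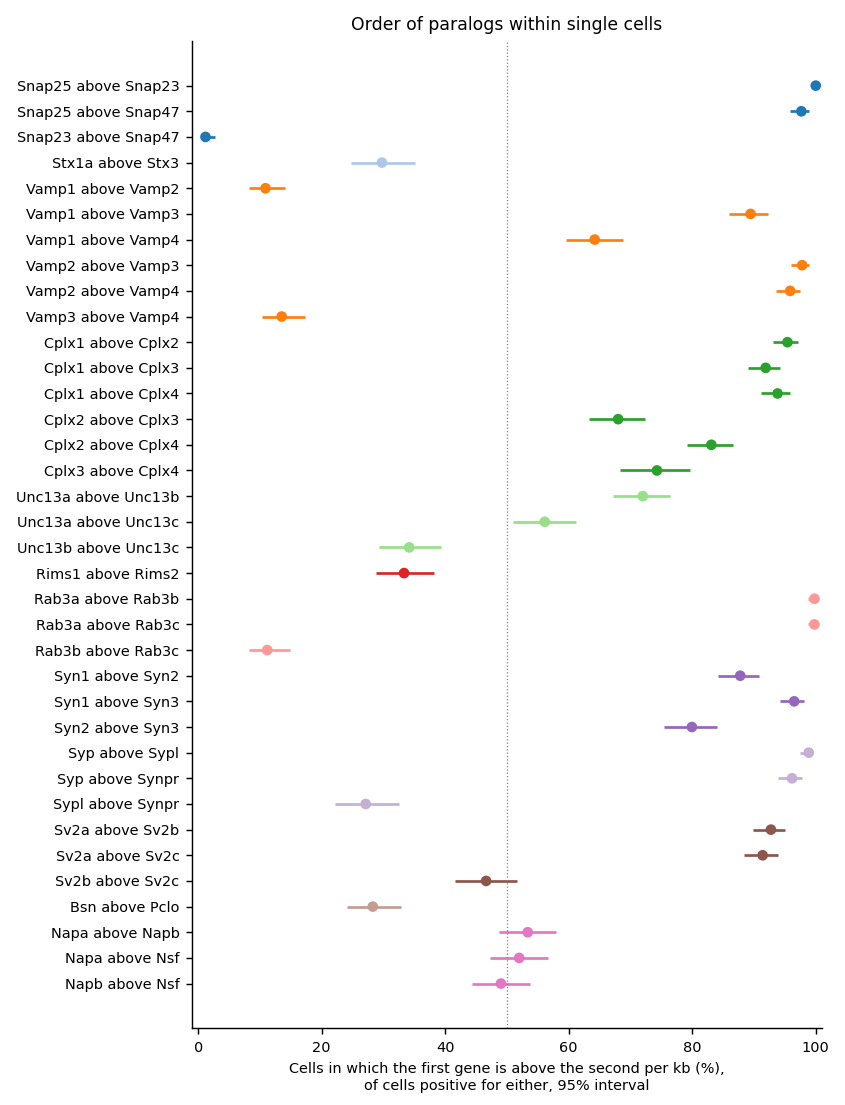
Percentage of cells in which the first gene of a pair lay above the second in CPM per kb, among cells positive for either, with exact 95% intervals, for the paralog pairs outside the synaptotagmins (dotted line at 50%). Rab3a above Rab3c (99.8%) and Snap25 above Snap47 (97.7%) lie at one edge, and the pairs of Napa, Napb and Nsf lie at the dotted line.

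Over all 13 families the within-cell order was fixed for some paralogs and variable for others. Of 72 pairs, 29 had 1 gene above the other in 90% or more of cells, and 27 pairs lay between 25% and 75%. The gene above in the majority of cells changed for 4 of the 72 pairs with the longest transcript as the length, for 4 with no length, for 2 in the few-marker cells and for 0 without run D.

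Cplx3, Cplx4 and Stx3 were more often positive in cells with many rod or bipolar markers, as were several other members, and the median levels of Cplx1 and Snap25 were lower in cells with many bipolar markers. These genes were singled out after their values were seen. Cplx4 was positive in 1 of 62 cells with no rod marker (1.61%, 0.0408% to 8.66%), in 10.1% of cells with 3 to 5 rod markers and in 54.7% (46.9% to 62.3%) of 170 cells with 6 or more. Cplx3 went from 12.9% to 82.4% over the same cells and Stx3 from 41.9% to 76.5%. By bipolar markers Cplx4 was positive in 1 cell of those with none (0.746%) and in 77.8% of 63 cells with 6 or more. Cplx3 went from 20.1% to 98.4% and Stx3 from 44.8% to 87.3%. Other members were also more often positive with more bipolar markers, from none to 6 or more: Synpr from 35.1% to 85.7%, Unc13b from 44.03% to 82.5%, Rims1 from 49.3% to 82.5% and Stx1a from 15.7% to 36.5%. Snap25 was positive in 100% of cells at every number of markers, and Cplx1 in 95.2% of cells with no rod marker and 95.9% of those with 6 or more. By bipolar markers Cplx1 was positive in 94.03% of cells with none and 100% of those with 6 or more, with medians of 1026 and 401.6 CPM, and Snap25 had medians of 5080 and 3477 CPM. Cells with no rod marker had a median of 5428 positive genes and those with 6 or more had 6030. By bipolar markers these numbers were 5037 and 6803. The median number of pan-ganglion-cell genes was 10 in all of these groups.

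**Figure D3:**
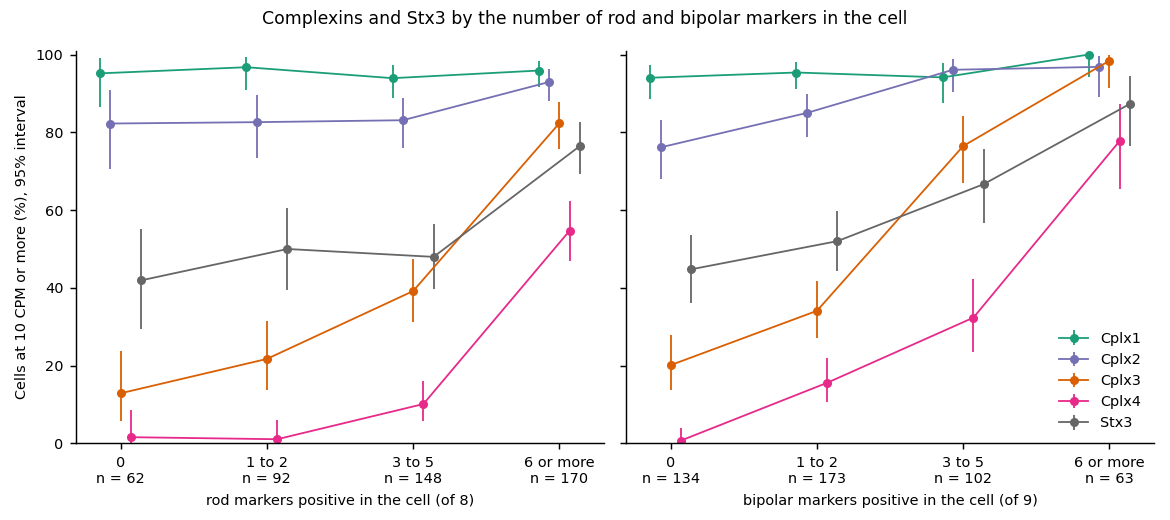
Percentage of cells at 10 CPM or more with exact 95% intervals for the 4 complexins and Stx3, by the number of positive rod markers (left) and bipolar markers (right) in the cell. Cplx4 climbs from 1.61% to 54.7% with rod markers, and Cplx1 stays near the top in every bin.

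In the few-marker cells Cplx4 was positive in 1 cell, at 15.8 CPM, and Cplx3 in 20 cells (16.3%, 10.2% to 23.99%), with a highest value of 444.8 CPM. In all other cells the shares were 31.2% and 59.03%. Cplx1 was positive in 95.9% of the few-marker cells and 95.1% of the others. Across all cells the Pearson correlation of log2(CPM + 1) with the summed rod markers was 0.64 for Cplx4, 0.55 for Cplx3 and 0.38 for Stx3, and -0.15 for Cplx1. These are descriptions over cells that share depth and RNA quality. The part that RNA of other retinal cells has in these levels was not tested.

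Cells were next divided by markers of ganglion cell types and of other retinal cells, and the mean CPM of each set was divided by that of all other cells. A gene was called higher at a ratio of 2 or more and lower at 0.5 or less, over the 11149 genes positive in 10% of cells or more, which include all 44. The sets overlap, so that 39 cells were both in the Spp1 and Kcng4 set and positive for Tbr1, and ratios from sets that share cells are not independent.

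The cells positive for both Spp1 and Kcng4, markers of alpha ganglion cells, made up 22.5% of all cells and were high in Syt2 and low in Stx1a and Syt5. Syt2 had a median of 186.3 CPM in the set (highest 1108) and 12.99 CPM in the other cells (highest 1260.1), so that the ranges overlap, and it was positive in 92.5% (85.7% to 96.7%) against 50.8% (45.6% to 56.1%). The ratio of means was 2.26, with 1.88 within run A, which holds 82 of the set's cells, and 2.95 within run D. It was the 1 member called higher, where 2.02% of all tested genes were. The 5 members called lower, against 3.35% of all tested genes, were Stx1a, Syt5, Syt6, Rab3b and Synpr. Stx1a was positive in 8.49% of the set (3.96% to 15.5%) and 29.8% of the other cells (25.1% to 34.7%), a ratio of means of 0.221 that was 0.155 within run A and 1.72 within run D, where the set has 11 cells. Syt5 was positive in 14.2% and 36.3%, with ratios of 0.404 and 0.343 in runs A and D. The Synpr ratio of 0.452 was 0.706 in run A and 1.59 in run D.

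Other members differed in the same set without reaching the ratio. Vamp1 was positive in 95.3% of the set and 79.5% of the others (ratio 1.52). Cplx1 had medians of 1255 and 602 CPM (ratio 1.65) and Sv2c of 217.7 and 58.6 CPM (ratio 1.76). Vamp2 had the opposite order, with 224.02 and 314.5 CPM (ratio 0.745). Snap25 had medians of 4874 and 4767 CPM (ratio 1.04). Vamp1 was above Vamp2 in 19.8% of the set and 8.22% of the others, Syt2 was above Syt5 in 91.9% and 52.5%, and Stx1a was above Stx3 in 13.04% and 34.4%. The set's cells had more positive genes, with a median of 6462.5 against 5365, and 71.7% and 66.1% had 3 or more rod markers. The part of depth in these differences was not tested.

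**Figure D4:**
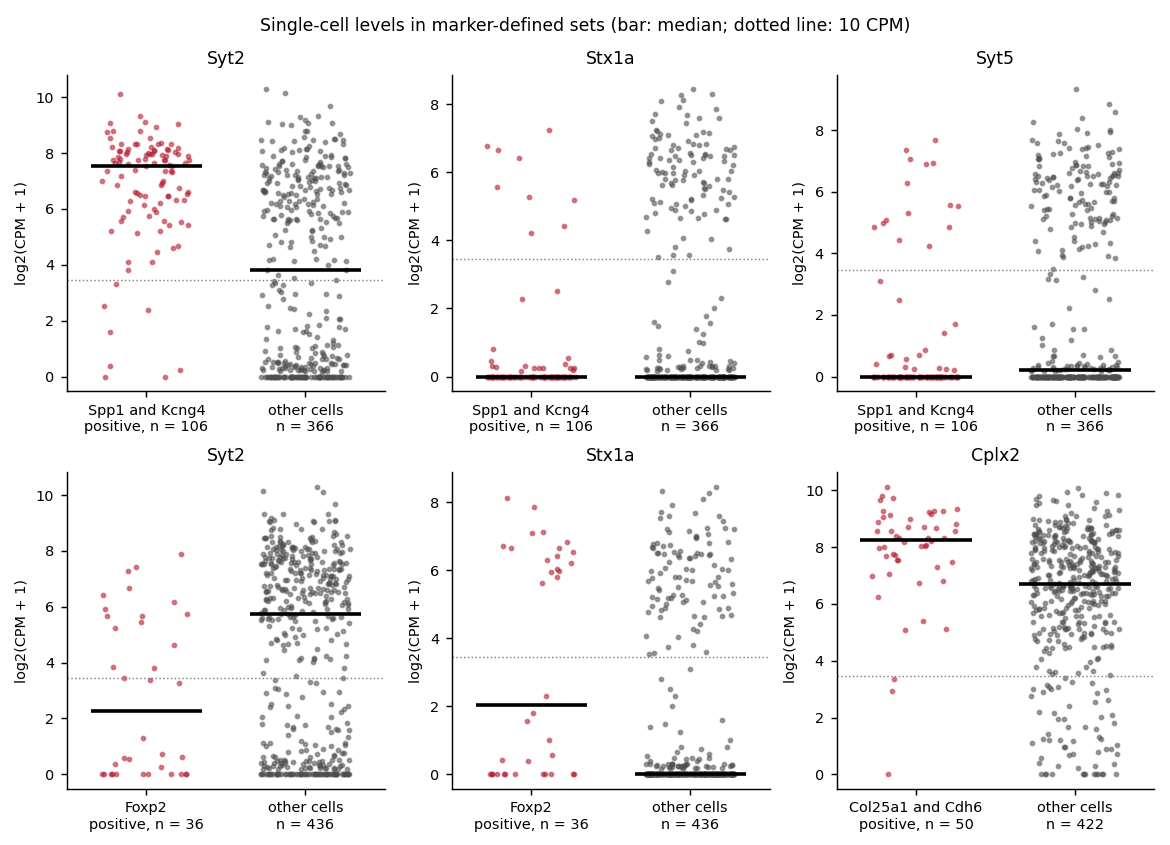
log2(CPM + 1) in every cell, with the median as a bar and 10 CPM as a dotted line, for 4 genes in 3 marker-defined sets and in all other cells. Syt2 sits above the line in 92.5% of Spp1 and Kcng4 cells and in 50.8% of the others, and its medians have the opposite order in the Foxp2 set.

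The 36 Foxp2 cells showed a different pattern for the same genes. Stx1a was positive in 47.2% of them (30.4% to 64.5%) and 23.2% of the other cells, with a ratio of means of 2.64 that was 6.15 in run A and 1.08 in run B. Syt2 was positive in 41.7% and 61.7%, with medians of 5.03 and 53.1 CPM and a ratio of 0.288 (0.168 in run A, 0.390 in run B). Stx1a was above Stx3 in 59.3% of the set and 26.99% of the others. Stx1a was the 1 member called higher, against 3.27% of all tested genes, and Syt2, Syt3, Syt6 and Sv2c were called lower, against 7.49%. Without run D, Vamp1 took the place of Syt3 among the lower genes. Of the Foxp2 cells 50% had 3 or more bipolar markers, against 33.7% of the others.

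In the 50 cells positive for Col25a1 and Cdh6, markers of direction-selective ganglion cells, Cplx2 had a median of 307.1 CPM against 103.8 CPM in the others, with a ratio of 2.07 that was 2.28 in run A and 1.97 without the cell of the highest Cplx2 level, which ends the call. It was the 1 member called higher (2.96% of all tested genes), and Syt6 and Rab3b were called lower (3.9%). In the 75 cells positive for Opn4 or Eomes, markers of melanopsin cells, Synpr was the 1 member higher (1.97%), with medians of 48.02 and 7.26 CPM and a ratio of 2.67. That ratio was 0.958 in run A, 3.76 in run B and 3.83 in run D. Unc13c had a ratio of 0.459 and was called lower (2.11%), but that call rests on 1 cell outside the set with 4314 CPM: without it the ratio was 0.525. Within run A the Unc13c ratio was 0.601, also short of the call. In the 79 Tbr1 cells 0 members were higher (1.26%) and Syt6, Cplx4 and Rab3b were lower (3.76%). Cplx4 was positive in 25.3% of the Tbr1 cells and 22.9% of the others, so its ratio of 0.358 came from the size of the values and not from their share. The lower calls of Syt6 and Rab3b recur over sets, and the genes were positive in 33.9% and 16.3% of all cells. These calls held when any 1 cell was left out. Why they recur was not tested.

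**Figure D5:**
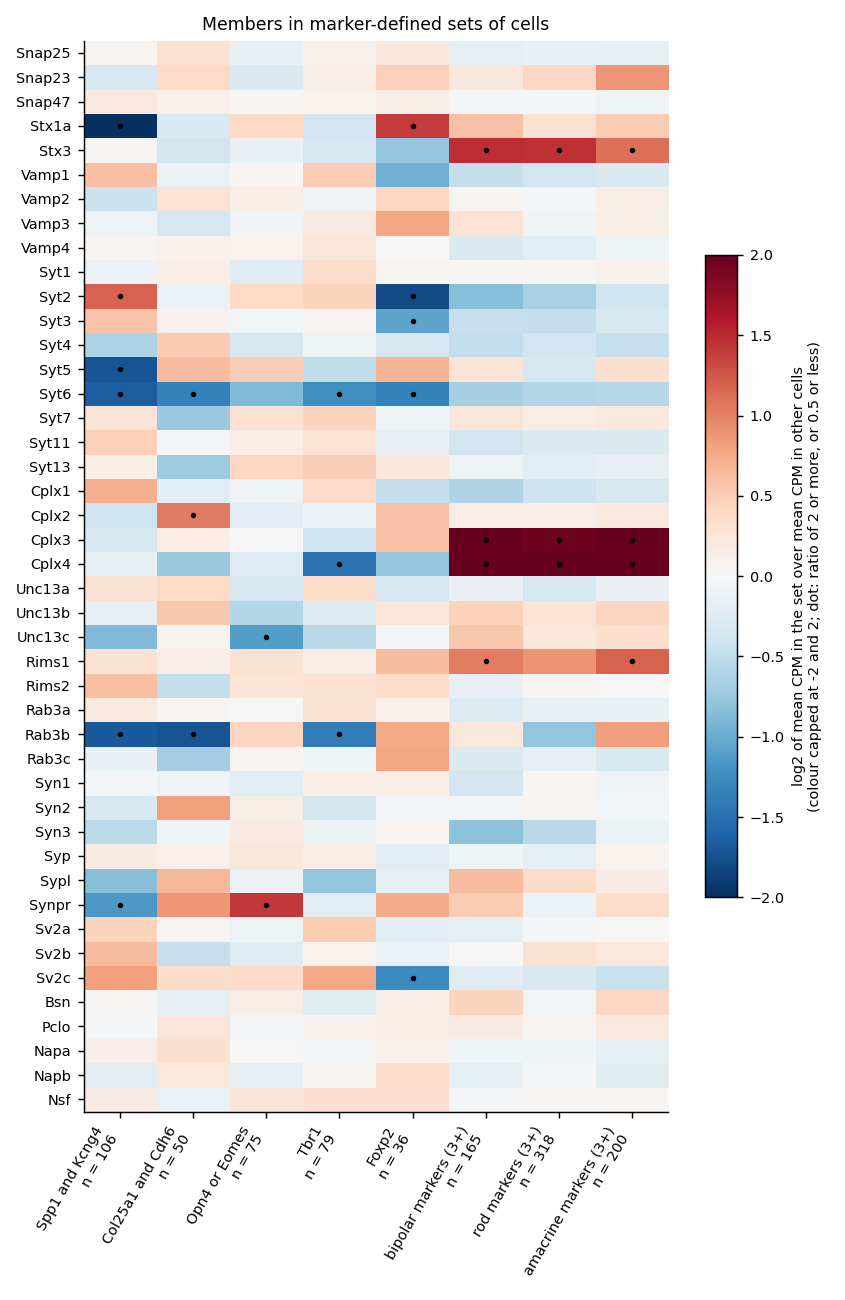
log2 of the mean CPM in a marker-defined set over the mean in all other cells for the 44 genes (rows) in 8 sets (columns), with colour capped at -2 and 2 and a dot at a ratio of 2 or more or 0.5 or less. Cplx3, Cplx4 and Stx3 are raised in all 3 sets defined by markers of other retinal cells, and the 5 ganglion cell sets have between 2 and 6 dots each.

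Stx3, Cplx3 and Cplx4 were called higher in each of the 3 sets defined by other retinal cells. Among cells with 3 or more bipolar markers, Stx3 (ratio 2.78), Cplx3 (6.17), Cplx4 (9.32) and Rims1 (2.04) were higher, where 4.13% of all tested genes were, and none was lower (1.46%). Rims1 had a ratio of 1.35 within run A, 2.93 in run B and 1.97 without the cell of its highest level, so that its call rests on 1 cell. Of the 30 called ratios in the 8 sets, these of Cplx2, Unc13c and Rims1 were the 3 whose call ended when any 1 cell was left out. Among the 67.4% of cells with 3 or more rod markers, Stx3 (2.75), Cplx3 (3.85) and Cplx4 were higher (3.7%) and 0 members were lower (1.12%), and Cplx4 was positive in 33.96% of them and in 2 of the others (1.30%). Among the 200 cells with 3 or more amacrine markers, Stx3 (2.15), Cplx3 (4.68), Cplx4 (4.26) and Rims1 (2.26) were higher (3.61%) and 0 members were lower (0.753%). These sets overlap: 98.8% of the cells with bipolar markers also had 3 or more rod markers, while 51.3% of the cells with rod markers and 63.5% of those with amacrine markers also had 3 or more bipolar markers. Among cells with under 3 bipolar markers, the amacrine ratio of Cplx4 was 0.549. The rod set there kept Cplx4 alone among its higher members, against 2.85% of all tested genes.

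The calls depend on the scale, since a ratio of means follows the highest cells and a mean of logs follows the share of cells with the gene. By a difference of mean log2(CPM + 1) of at least 1, the Spp1 and Kcng4 set had 10 members higher, among them Vamp1, Syt2, Cplx1 and Sv2c (14.9% of all tested genes), and Stx1a and Syt5 lower (0.404%). The Col25a1 and Cdh6 set had 10 higher, Cplx2 among them (10.2%), and Rab3c lower (0.26%). The Opn4 or Eomes set had Syt13 and Synpr higher (2.19%) and 0 lower (0.0359%). The Tbr1 set had 7 higher (9.1%) and 0 lower (0.197%). The Foxp2 set had Stx1a, Vamp3, Rab3c and Synpr higher (3.77%) and Vamp1, Syt2 and Sv2c lower (1.22%). The sets with bipolar, rod and amacrine markers had 9, 5 and 10 higher (7.23%, 2.78% and 7.13%) and 0 lower (0.0179%, 0% and 0%). Stx3, Cplx3, Cplx4, Unc13b and Rims1 were higher in each of them. Among the ganglion cell sets, Syt2, Stx1a and Syt5 for Spp1 and Kcng4 were called in the same direction on both scales. So were Stx1a, Syt2 and Sv2c for Foxp2, Cplx2 for Col25a1 and Cdh6, and Synpr for Opn4 or Eomes. The Tbr1 set had no such member.

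Beside the 44 genes, 65 further genes of release and recycling were listed. The mark of 50% of cells used next was reached by 19.2% of the 22436 genes that had at least 1 positive cell. At least 50% of cells were positive for 15 of 16 vesicle endocytosis genes, led by the clathrin adaptor subunit Ap2m1 (97.2%) and the dynamins Dnm1 (96.2%) and Dnm3 (92.6%). The same held for 9 of 14 vesicle proteins, led by the proton pump subunits Atp6v1b2 (96.6%) and Atp6v0a1 (93.2%) and the glutamate transporter Slc17a6 (92.2%), and for 9 of 13 active zone genes, led by Cask (78.6%), Apba1 (72.9%) and Lin7a (72.7%). It held for 8 of 22 other fusion genes, Rph3a (90.5%), an effector of Rab3, among them, while Otof, the calcium sensor of hair cells, was positive in 1 cell, Cadps2 in 3 and Syt10 in 11. In the bipolar-marker set 4 of the 56 tested genes of these lists were higher, against 4.13% of all tested genes. They included Ctbp2, whose locus also encodes the ribbon protein RIBEYE, at a ratio of 4.52. Slc17a7, the glutamate transporter of photoreceptors and bipolar cells, had 7.13. The others were Slc32a1, one of the amacrine markers, at 4.27 and Syt9 at 2.36. In the rod-marker set Ctbp2 and Slc17a7 had ratios of 4.52 and 9.67, and in the amacrine-marker set 4.14 and 4.21. These genes are named after their values were seen.

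Promoters are shown for 3 genes, since Syt2, Vamp1 and Stx1a varied widely between cells for their level, at percentiles 95.6, 98.95 and 88.6 of spread, against 3.09 for Syt1 and 3.52 for Vamp2. They were chosen after their values were seen. Each is the 250 bases before an annotated start, from RefSeq on GRCm38.p6, read 5′ to 3′ on the plus strand, at chr1:134646362-134646611, chr6:125215331-125215580 and chr5:135023232-135023481. Capitals mark GGGCGG on either strand (the GC box), the one motif of 4 searched that was found in these windows.
Syt2: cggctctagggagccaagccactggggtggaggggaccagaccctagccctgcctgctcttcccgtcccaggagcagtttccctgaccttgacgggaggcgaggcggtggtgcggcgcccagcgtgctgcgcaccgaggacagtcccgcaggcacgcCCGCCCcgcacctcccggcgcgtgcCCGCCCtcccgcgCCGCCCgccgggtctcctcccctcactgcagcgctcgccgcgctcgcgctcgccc
Vamp1: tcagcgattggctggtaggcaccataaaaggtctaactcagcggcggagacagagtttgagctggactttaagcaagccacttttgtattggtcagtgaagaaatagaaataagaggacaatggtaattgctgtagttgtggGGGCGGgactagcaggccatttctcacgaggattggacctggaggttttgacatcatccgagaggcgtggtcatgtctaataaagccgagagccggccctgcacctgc
Stx1a: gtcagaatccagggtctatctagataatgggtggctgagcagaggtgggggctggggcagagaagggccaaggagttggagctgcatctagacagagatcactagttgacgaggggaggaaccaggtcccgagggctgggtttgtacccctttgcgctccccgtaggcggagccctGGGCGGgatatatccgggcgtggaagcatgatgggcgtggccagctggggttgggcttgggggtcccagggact
The Syt2 window has 3 matches and the others 1 each. Syt2 has a second annotated start, whose window at chr1:134709050-134709299 is not printed and has 2 matches. GGGCGG was found in 32.7% of 32851 promoters of the same length and in 28 of the 46 promoters that matched 34 of the 44 genes. The other motifs searched on both strands were TGACGTCA, CACGTG and TATAAA, found in 1.55%, 6.02% and 12.4% of all promoters. A match is a description of the letters alone.

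Correlations across cells were low for most pairs. Over the 946 pairs of the 44 genes the median Pearson correlation of log2(CPM + 1) was 0.16 over all cells, 0.09 within run A and 0.05 in the 360 cells with at least 4000 positive genes, a subset chosen after the data were seen. The highest were Snap25 with Rab3a at 0.69, Snap25 with Napb at 0.64 and Cplx1 with Rab3a at 0.58, and these were 0.69, 0.66 and 0.64 in the 360 cells. Snap25 had a correlation of 0.78 with the summed pan-ganglion-cell markers. Within families, Cplx3 and Cplx4 had 0.46 and Vamp1 and Vamp2 had 0.20, the latter -0.06 within run A. All these cells share library handling, depth and RNA quality. Of the 44 genes, 21 had a spread over cells above the median of genes of like level (47.7%, against 49.95% of all genes tested), with Snap25, Rab3a and Syt1 among the least variable.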

How the data were processed

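The 472 single retinal ganglion cells were measured by Smart-seq2. The deposited table holds estimated counts per gene and cell that the authors made; reads were aligned with STAR 2.7.0 to mm10, per the submitters' processing notes, and the quantification tool and annotation were not given in the sources used here. Of the values 1.36% were not whole, and all were rounded first. CPM was computed over 55450 genes without the 92 ERCC spike-ins. Lengths are exon unions of GENCODE mouse release 21, where all 55450 identifiers were found. Shares carry exact (Clopper-Pearson) 95% intervals. Reads without molecular identifiers are not independent molecules, so these cover counting error only. Runs were read from library names: flow cell and lane for A, D and E, order number for B and C. No cell was left out. Cells were taken up one by one, so doublets were not called. Runs A to E hold 234, 98, 62, 59 and 19 cells, few-marker cells number 123, and the sets hold 106 (Spp1 and Kcng4), 50, 75, 79 and 36 cells and 165, 318 and 200 (bipolar, rod and amacrine markers). No test between cells was possible. The set ratios were run on simulated data, in which real values were shuffled over cells and known changes put into 106 random cells. Shuffling removes differences of run and depth, so this check does not cover the marker-defined sets. Every member may be named, with the 3 highest and 3 lowest genes of each further list, all markers and the set genes; other names are marked, and some results under this rule are not reported here. The members and lists were chosen with earlier results of these data known. Alternatives were other thresholds, thinning to 1000000 counts, other lengths, subsets of cells and runs left out. Python 3.11.15, numpy 2.4.6, pandas 2.3.3, scipy 1.17.1 and matplotlib 3.10.9 were used.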

Additional observations from a re-analysis of the deposited data

Results flagged for a closer look

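The ERCC spike-in RNAs, which no level or share of the release genes uses, took up to 31.1% of all counts in a cell, against a median of 0.738% over all cells and 1.94% in run D. It is listed because it is a signal outside the gene counts.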

How the results depend on the processing

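No paired analysis was possible because there is 1 group and each sample is 1 cell. At 100 CPM the number of members at or above 50% of cells was 18 and the median per cell 21. Shares moved past their intervals for 39 of 44 genes at 1 CPM, 43 at 100 CPM, 29 in few-marker cells, 28 without run A and 16 without run D, and for 0 when thinned. The set calls depended on the measure. The other measure was a difference of mean log2(CPM + 1) of 1 or more. By it, members higher and lower numbered 10 and 2 for Spp1 and Kcng4 (14.9% and 0.404% of all tested genes). They numbered 10 and 1 for Col25a1 and Cdh6 (10.2% and 0.26%) and 2 and 0 for Opn4 or Eomes (2.19% and 0.0359%). Counts were 7 and 0 for Tbr1 (9.1% and 0.197%) and 4 and 3 for Foxp2 (3.77% and 1.22%). By that measure 9, 5 and 10 were higher for bipolar, rod and amacrine markers (7.23%, 2.78% and 7.13%). In run A alone, 0 were higher for Spp1 and Kcng4 (2.42% of all tested genes) and 4 lower for Col25a1 and Cdh6 (5.57%). For Opn4 or Eomes 0 were higher (3.76%) and 3 lower (4.99%), and for Foxp2 4 were higher (8.19%) and 6 lower (16.7%). For bipolar and amacrine markers 1 each was lower (3.47% and 1.69%). Among cells with under 3 bipolar markers, 3 were higher for Col25a1 and Cdh6 (5.44% of all tested genes). For Opn4 or Eomes 3 were lower (5.56%) and for Tbr1 5 were lower (6.22%). For Foxp2 2 were higher (6.56%) and 9 lower (15.07%, against 7.49% of all tested genes in all cells). For rod markers 1 was higher (2.85%) and 1 lower (2.65%), and for amacrine markers 2 were higher (2.78%). The ratio of Synpr in the Opn4 or Eomes set turned to 0.958 in run A, and that of Cplx4 in the amacrine set to 0.549 among cells with under 3 bipolar markers. The causes were not tested. Leaving out run D or single cells, the few-marker order of paralogs and the subset of deeper cells were alternatives chosen after seeing the data. Animals are not named, so spread between animals is unknown.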
